A study of Rattus norvegicus with 6 samples.

Results

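The 10 genes of iron recycling and storage followed here were measured in the right knee articular cartilage of rats. They were the haem oxygenase Hmox1, the biliverdin reductase Blvrb, the haemoglobin scavenger receptor Cd163 and the iron exporter Slc40a1. The others were the ferritin chains Fth1 and Ftl1, the transferrin receptor Tfrc, the metal importers Slc11a1 and Slc11a2, and the transcription factor Spic. All 10 were chosen by gene name for these roles. The 10 names took 11 of the 26981 rows of the gene table, since Slc40a1 is listed under a pair of Ensembl identifiers. All 11 rows passed the filter on low counts, which kept 16447 rows.

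RNA was sequenced from 3 libraries of loaded knees and 3 libraries of control knees, all from wild-type male rats of the Sprague-Dawley strain, aged 6 weeks when loading began. In the loaded group, labelled as excessive mechanical load, the right knee and ankle of the anaesthetised rat were compressed along the limb axis every 2 days for 4 weeks, to a peak of 20 N for 0.5 s in each of 40 cycles of 10 s. The control libraries carry no treatment label and were taken as the unloaded group of 3 from their titles and the study's design. The labels do not say whether each library came from a separate animal, and the spread behind each p-value is therefore that between libraries and may be technical.

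Iron leaving old red cells passes through macrophages. Haemoglobin bound to haptoglobin can enter them through CD163. Haem oxygenase 1 opens the haem ring and frees the iron, and a biliverdin reductase converts the biliverdin that remains. The freed iron is stored in ferritin, a shell of heavy and light chains, or leaves the cell through ferroportin (Slc40a1), and cells that need iron take up transferrin through its receptor. SPIC is the factor that marks the red pulp macrophages of the spleen, which recycle iron from old red cells.

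The libraries held 28435307 to 33616096 counts in the loaded group and 34527264 to 40332904 counts in the control group, and a count of 0 allowed at most 0.0744 to 0.106 CPM (counts scaled to a common library size), a limit for counting error only. The tissue was mixed. Markers of chondrocytes, none of them at 0, took 0.27% to 0.295% of counts in loaded libraries and 0.179% to 0.193% in control libraries, and erythroid markers took 5.54% to 6.29% and 6.03% to 6.93%. In such bulk RNA, fewer cells of a type and less RNA per cell cannot be told apart.

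The main site of ferritin light chain reads was not the row named Ftl1 (ENSRNOG00000031506). It was LOC100360087 (ENSRNOG00000020843), whose deposited annotation is ferritin light chain 1 and which RefSeq (assembly GRCr8) places on chromosome 5 with Ftl1 as a synonym, a gene of 918 bases. The RefSeq gene called Ftl1 lies on chromosome 1 and spans 1848 bases. Ferritin messages are known to carry near their 5′ end a hairpin, the iron-responsive element, to which iron regulatory proteins bind. The last 30 of the first 50 transcribed bases that RefSeq gives for LOC100360087, at GRCr8 chr5:151606516-151606545 on the plus strand, are shown because they hold letters that match the bulge and loop of that hairpin, a match and not a tested site. Capitals mark a C, the next 5 bases and the loop bases CAGTG.

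LOC100360087: cccgaggatctgtatcttgCTTCAACAGTG

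This motif, a C followed after 5 bases of any kind by CAGTG, searched on the transcribed strand in the first 50 transcribed bases, occurred in 1.6% of 33469 RefSeq windows. Windows were found for 7 of the 11 genes looked up, 6 of them among the 10, and none for Hmox1, Fth1, Ftl1 and Slc11a1. Among their 8 windows the motif was found in that of LOC100360087 alone.

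Of the 11 rows, 4 were lower in loaded than in control knees (Hmox1, Cd163, Slc11a2, Blvrb), 1 was higher (Fth1) and 6 did not pass (both Slc40a1 rows, Ftl1, Tfrc, Slc11a1, Spic), with edgeR's quasi-likelihood fit at a Benjamini-Hochberg adjusted p below 0.05 over all genes. Of all genes tested, 35.8% passed, 17.9% higher and 18.0% lower. The 5 calls among 11 rows were near that background, and the 4 lower calls among 11 were not tested against it. With library totals in place of TMM scaling, 63.3% of all calls were rises, against 49.9%, and Tfrc passed upward while Blvrb did not pass. The changes were small. The largest was 0.60 on the log2 scale, none reached 2-fold, where 1084 genes of the table did, and the median log2 fold change was -0.10 for the 11 rows and 0.00 for all genes.

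**Figure D1:**
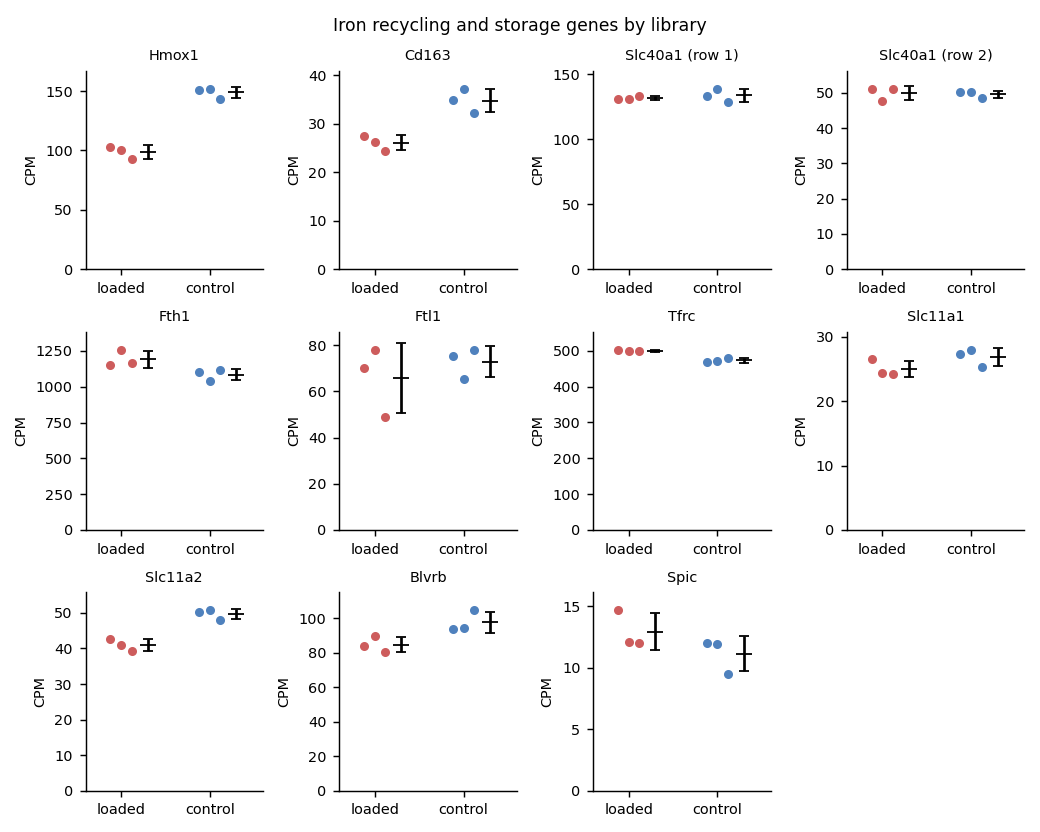
Level of each gene in every library, in CPM on an axis that starts at 0, loaded libraries in red and control libraries in blue, with the mean and SD of each group (n = 3) in black. Row 1 of Slc40a1 is ENSRNOG00000003872 and row 2 is ENSRNOG00000049995. Hmox1, Cd163, Slc11a2 and Blvrb lay lower in all 3 loaded libraries than in any control library.

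Hmox1, Cd163 and Blvrb, the haem oxygenase, haemoglobin receptor and biliverdin reductase genes among the 10, were each lower in loaded knees. Hmox1 (ENSRNOG00000014117), the inducible haem oxygenase, had 103, 100.2 and 92.3 CPM in loaded libraries, against 151, 152 and 144 CPM in control libraries. The highest loaded library was well under the lowest control library. The mean was 98.6 ± 5.58 CPM in loaded and 149 ± 4.47 CPM in control knees (SD, n = 3 each), a log2 fold change of -0.60 ± 0.052 (SE; adjusted p = 4.73e-07, edgeR), or 33.8% lower.

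Cd163 (ENSRNOG00000010253), the macrophage receptor for haptoglobin-haemoglobin complexes, had 27.6, 26.3 and 24.4 CPM in loaded libraries, against 34.9, 37.2 and 32.3 CPM in control libraries. The groups did not overlap, and the gene fell by 0.42 on the log2 scale (SE 0.077, adjusted p = 0.000633, edgeR). Blvrb (ENSRNOG00000024410), biliverdin reductase B, had 83.9, 89.6 and 80.6 CPM in loaded libraries and 93.7, 94.3 and 104.5 CPM in control libraries. It fell by 0.20 (SE 0.058, adjusted p = 0.0129, edgeR), with the groups apart. Its call rested on control 3, the highest library, without which the change was -0.15 (adjusted p = 0.0882, edgeR), and was lost with library totals (-0.13, adjusted p = 0.107).

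Of the rows called lower, Blvrb, Cd163 and Slc11a2 had RefSeq windows. For Blvrb and Cd163 only, the 250 bases before the transcript start of the RefSeq window are shown. They lie on GRCr8, plus strand, at chr1:91866008-91866257 for Blvrb and chr4:158770524-158770773 for Cd163. RefSeq's gene record for Cd163 begins at 158770751, inside that stretch. Capitals mark GCGTG on either strand (CACGC on the strand shown), a core bound by hypoxia-inducible factors.

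Blvrb: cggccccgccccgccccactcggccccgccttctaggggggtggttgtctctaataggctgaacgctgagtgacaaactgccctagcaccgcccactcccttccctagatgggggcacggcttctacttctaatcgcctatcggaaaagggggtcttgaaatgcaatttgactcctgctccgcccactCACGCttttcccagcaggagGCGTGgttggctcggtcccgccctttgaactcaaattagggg

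Cd163: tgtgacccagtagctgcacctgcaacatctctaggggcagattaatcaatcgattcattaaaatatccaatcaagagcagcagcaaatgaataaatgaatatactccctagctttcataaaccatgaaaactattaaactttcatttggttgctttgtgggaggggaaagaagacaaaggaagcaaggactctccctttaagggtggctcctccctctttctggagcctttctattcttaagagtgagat

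The Blvrb stretch was richer in G and C (60.4%) than the Cd163 stretch (40.8%), with a median of 51.2% over all windows. GCGTG was found in the windows of Blvrb, Slc11a2, Spic and Tfrc, 4 of 8 windows, and in 29.7% of all windows. The antioxidant response core TGACNNNGC, the site of NRF2 and of the haem-sensing repressor BACH1, was searched on both strands and found in 0 of the 8 windows and in 12.1% of all windows. No window was found for Hmox1, Fth1, Ftl1 or Slc11a1, so these genes were not searched. With only 8 windows, the 0 cannot be told apart from the share of 12.1%. The 300 bases of each window do not cover distant enhancers.

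Ferritin messages were abundant and moved little. Fth1 (ENSRNOG00000022619), the heavy chain that oxidises iron for storage, had 1151, 1260 and 1164 CPM in loaded libraries, against 1100, 1039 and 1116 CPM in control libraries. The loaded libraries lay just above the controls, with a log2 fold change of 0.14 ± 0.04 (SE; adjusted p = 0.0168, edgeR), or 9.87% higher. This call was lost without loaded 2, the highest library (0.09, adjusted p = 0.108), and without control 2, the lowest (0.10, adjusted p = 0.104, edgeR for both).

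The Ftl1 row had 70.1, 78.1 and 48.9 CPM in loaded libraries and 75.3, 65.3 and 77.9 CPM in control libraries. The groups overlapped, loaded 3 was the lowest library, and the interval of the log2 fold change ran from -0.70 to 0.40 (95%; adjusted p = 0.641, edgeR). LOC100360087, taken up after its values were seen, had 1913, 2042 and 1910 CPM in loaded libraries, against 1833, 1841 and 1825 CPM in control libraries. Its log2 fold change was 0.09 ± 0.032 (SE; adjusted p = 0.0358, edgeR), a call that was lost with DESeq2 (adjusted p = 0.0614), without loaded 2 and without any single control library. It held 94.7% to 95.9% of the reads of the 7 rows annotated with the symbol Ftl1 in loaded libraries and 94.3% to 95% in control libraries, and the row named Ftl1 held 2.45% to 3.62% and 3.37% to 4.02%. Summed, the 7 rows stood at 2054 ± 89.0 CPM in loaded and 1938 ± 3.34 CPM in control knees (SD, n = 3 each), with a log2 fold change of 0.08 ± 0.033 (SE; adjusted p = 0.0653, edgeR). How the counting shared reads among these near-identical rows is not stated, so the light chain is best read from the sum.

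**Figure D2:**
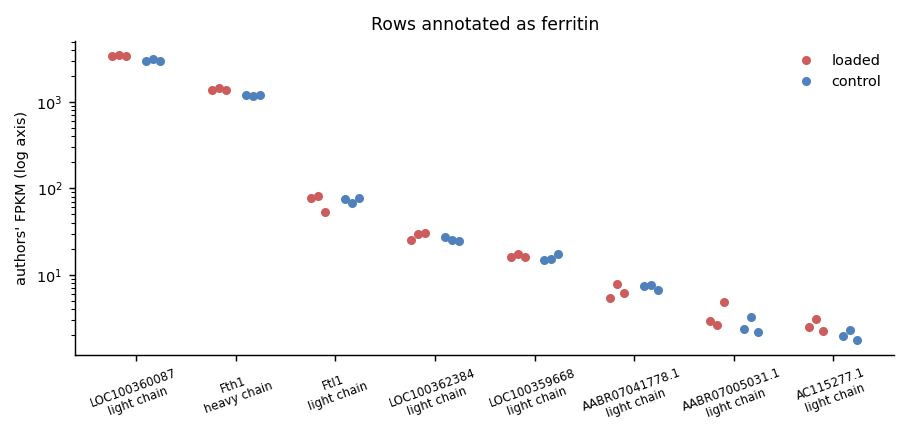
Level of each row annotated as ferritin with more than 1 CPM in control knees, as the authors' FPKM on a log axis, each point 1 library, loaded in red and control in blue. LOC100360087 stood at 3446 FPKM in loaded and 3034 FPKM in control knees, against 70.2 and 73.2 FPKM for the row named Ftl1. The FPKM lack TMM scaling, and the log2 fold change of LOC100360087 from TMM-scaled counts was 0.09.

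Iron export and transferrin uptake showed no called change. Slc40a1 had 131, 131 and 133 CPM in loaded libraries, against 133, 139 and 129 CPM in control libraries, in its larger row (ENSRNOG00000003872). Its smaller row (ENSRNOG00000049995) had 51.2, 47.8 and 51.2 CPM in loaded and 50.2, 50.3 and 48.5 CPM in control libraries. In both rows the groups overlapped, and the intervals of the log2 fold change (-0.12 to 0.08, and -0.10 to 0.13) included 0 in both (adjusted p = 0.746 and 0.884, edgeR). Tfrc (ENSRNOG00000001766), the receptor through which erythroblasts and dividing cells take up transferrin, had 504, 499 and 499 CPM in loaded libraries, against 469, 472 and 481 CPM in control libraries. The groups did not overlap, but the change of 0.08 ± 0.035 (log2, SE) did not pass (adjusted p = 0.0898, edgeR).

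Of the paralogous metal importers, Slc11a2 passed the test and Slc11a1 did not. Slc11a2 (ENSRNOG00000019550), which carries ferrous iron out of endosomes, had 42.6, 40.9 and 39.4 CPM in loaded libraries, against 50.2, 50.7 and 48.0 CPM in control libraries. All loaded libraries lay lower, and the gene fell by 0.28 (SE 0.058, adjusted p = 0.00152, edgeR). Slc11a1 (ENSRNOG00000014956), the transporter of phagosome membranes in macrophages and neutrophils, had 26.5, 24.4 and 24.2 CPM in loaded and 27.4, 28.01 and 25.2 CPM in control libraries. These groups overlapped, with an interval from -0.27 to 0.07 for the log2 fold change (adjusted p = 0.348, edgeR).

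Spic (ENSRNOG00000005720) had 14.7, 12.1 and 12.01 CPM in loaded libraries, against 11.99, 11.9 and 9.49 CPM in control libraries. Loaded 1 was the highest and control 3 the lowest, and the other 4 libraries were nearly level. The change of 0.22 ± 0.126 (log2, SE) did not pass (adjusted p = 0.204, edgeR), with an interval from -0.05 to 0.49. In all, the groups did not overlap for 7 of the 11 rows, against 47.9% of all genes tested. Loaded lay above in 3 rows and below in 4, against 23.9% of all genes above and 23.9% below.

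**Figure D3:**
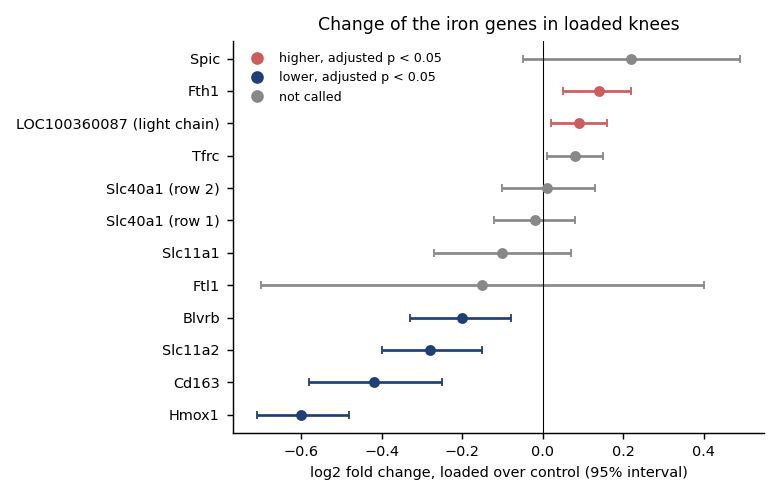
Log2 fold change of loaded over control knees for the 11 rows and LOC100360087, with 95% intervals from edgeR's fit. Red points were higher and dark blue points lower at an adjusted p under 0.05, grey points were not called. Hmox1 (-0.60) and Cd163 (-0.42) were the lowest.

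Per length of gene, in the authors' FPKM, Fth1 led the 10 names (1397 in loaded and 1194 in control knees). Tfrc followed (102 and 90.4 FPKM). The row named Ftl1, which holds few of the light chain reads, stood at 70.2 FPKM in loaded and 73.2 FPKM in control knees, and its loaded range (52.9 to 81.1) took in those of Blvrb and Hmox1. Hmox1 stood at 61.2 FPKM in loaded knees, where its 3 libraries (58.0 to 65.4) lay under those of Blvrb (69.7 to 74.3). In control knees it stood at 86.9 FPKM, and its libraries (82.8 to 91.0) met those of Blvrb (74.4 to 82.9) and overlapped those of Tfrc (88.4 to 92.3). The Slc40a1 rows came next (39.6 and 33.8 FPKM in loaded, 37.8 and 31.4 in control knees), then Slc11a2 (13.9 and 15.4), Slc11a1 (11.2 and 11.2), Spic (11.2 and 9.01) and Cd163 (6.41 and 8.08). In loaded knees the ranges of Slc11a1 and Spic overlapped (10.6 to 12 and 10.1 to 12.9 FPKM), so their order is not settled. The FPKM lack the TMM scaling of the CPM, so they serve to order genes and not to compare groups. Both Slc40a1 rows had higher mean FPKM in loaded knees, where their log2 fold changes from counts were -0.02 and 0.01. For Fth1 that fold change was 0.14.

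A ratio of 2 genes within a library does not depend on how libraries are scaled to each other. An exact two-sided permutation test of 3 against 3 libraries cannot give a p below 0.1, and a ratio whose groups do not overlap reaches it. The log2 ratio of Hmox1 to Blvrb counts was 0.22 ± 0.07 in loaded and 0.61 ± 0.132 in control libraries (SD, n = 3 each; exact p = 0.1). Hmox1 also lost ground to Cd163, with a log2 ratio of 1.92 ± 0.014 in loaded and 2.10 ± 0.064 in control libraries (exact permutation p = 0.1). Within these libraries Hmox1 was thus lower relative to Blvrb and to Cd163. Blvra, the other biliverdin reductase, fell nearly as much as Hmox1 (log2 fold change -0.57 against -0.60), and its ratio to Hmox1 was not taken.

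Slc11a1 gained on Slc11a2, the log2 ratio being -0.71 ± 0.031 in loaded and -0.89 ± 0.037 in control libraries (exact permutation p = 0.1, n = 3 each). The ratio of import to export, Tfrc to both Slc40a1 rows, was 1.46 ± 0.024 in loaded and 1.37 ± 0.063 in control libraries, with overlapping groups (exact permutation p = 0.2). The sum of light chain rows against Fth1 was 0.79 ± 0.018 in loaded and 0.84 ± 0.055 in control libraries, also overlapping (exact permutation p = 0.2). The Slc40a1 to Spic ratio overlapped too (3.82 ± 0.163 in loaded and 4.05 ± 0.153 in control libraries, exact permutation p = 0.2). The row named Ftl1 against Fth1 stood at -4.21 ± 0.317 in loaded and -3.90 ± 0.081 in control libraries (exact permutation p = 0.1), where without loaded 3 the difference of -0.31 became -0.12.

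**Figure D4:**
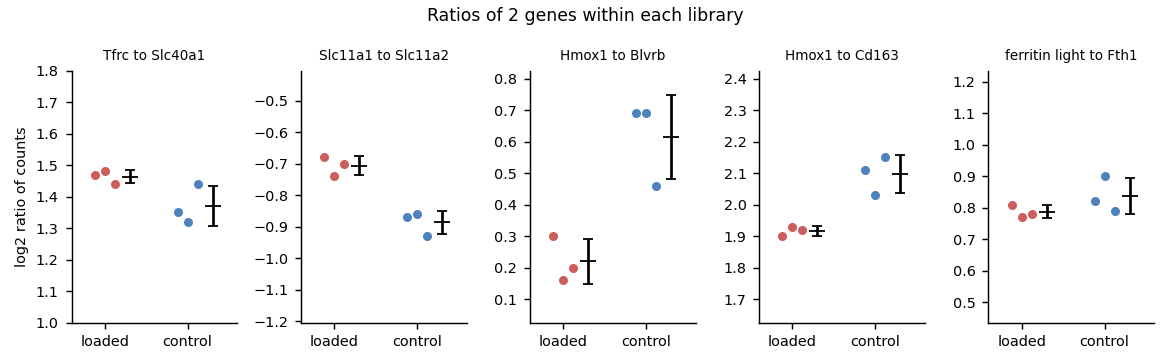
Log2 ratio of the counts of 2 genes within each library (for ferritin light, the sum of the 7 light chain rows), loaded in red and control in blue, with mean and SD (n = 3) in black. Each panel spans 0.8 log2 units. Hmox1 to Blvrb and Hmox1 to Cd163 were lower in every loaded library, and Slc11a1 to Slc11a2 was higher.

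Macrophage markers went both ways beside the fall of Hmox1 and Cd163. Of 13 tested markers of monocytes and macrophages 5 were higher and 6 lower, and Marco was at 0 in all libraries. The complement genes C1qa, C1qb and C1qc rose by 0.69, 0.45 and 0.55 on the log2 scale, and Cd68 by 0.17. The mannose receptor gene Mrc1 fell by 0.69, Vsig4 fell by 1.24, Cd14 fell by 1.13 and Csf1r fell by 0.45. The summed level was 11560 to 11764 CPM in loaded and 15605 to 16045 CPM in control libraries, nearly all of it Lyz2. Without Lyz2 it was 885 to 915 CPM and 768 to 784 CPM.

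The log2 ratio of Hmox1 to these markers without Lyz2 was -3.18 ± 0.081 in loaded and -2.38 ± 0.031 in control libraries, and that of Cd163 was -5.10 ± 0.091 and -4.48 ± 0.089 (SD, n = 3 each; exact permutation p = 0.1 for both; Lyz2 was left out after its share was seen). With Lyz2 the ratio of Hmox1 was -6.89 ± 0.072 and -6.73 ± 0.025 (exact permutation p = 0.1), and that of Cd163 overlapped between groups (-8.80 ± 0.077 in loaded and -8.83 ± 0.083 in control libraries, exact permutation p = 0.7). So Hmox1 was lower relative to the summed markers either way, and Cd163 only without Lyz2. C1qa, C1qb and C1qc, which rose, made up much of the sum without Lyz2. They stood at 247, 136.5 and 159 CPM in loaded and 154, 99.6 and 108 CPM in control knees. Of the single tested markers, Mrc1 (-0.69), Vsig4 (-1.24) and Cd14 (-1.13) fell further than Hmox1 (-0.60), and the others fell less or stood higher in loaded knees. Of 7 tested markers of erythroblastic island and red pulp macrophages, 1 was higher (Siglec1, by 1.06) and 2 lower (Vcam1, which fell by 0.35, and Epor, which fell by 0.23).

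Erythroid markers were lower in 5 and higher in 1 of 13 cases, with a summed level of 52777 to 61305 CPM in loaded and 60797 to 71998 CPM in control libraries, ranges that overlapped. Nearly all of that sum was Hbb (50191 to 58626 CPM in loaded and 57843 to 69069 CPM in control libraries), which did not pass (adjusted p = 0.147, edgeR). Tfrc against these markers, in effect against Hbb, had a log2 ratio of -6.84 ± 0.117 in loaded and -7.16 ± 0.135 in control libraries (exact permutation p = 0.1, n = 3 each). Neutrophil and marrow myeloid markers were lower in 8 and higher in 1 of 11 cases (31641 to 38242 CPM in loaded, 45702 to 50275 CPM in control libraries), and S100a9 and S100a8 made up most of that sum. Slc11a1, which neutrophils also express, stood at -10.44 ± 0.149 against them in loaded and -10.82 ± 0.143 in control libraries (exact permutation p = 0.1). Markers of other cells of the joint and marrow moved too. Adipocyte markers were lower in 7 of 7 cases (median log2 fold change -1.82), osteoblast markers higher in 8 of 8 (1.14) and osteoclast markers higher in 4 of 9 with 0 lower (0.64). Chondrocyte markers were higher in 7 and lower in 1 of 12 (0.31), fibroblast and synovial lining markers higher in 5 and lower in 2 of 8 (0.52), and endothelial markers higher in 1 and lower in 4 of 8 (-0.13). What part these cell types had in the changes was not tested.

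Other genes of iron and haem handling went both ways. In 7 lists, 66 tested rows held 8 higher and 21 lower calls, where 17.9% of all genes were called higher and 18.0% lower. Lower calls outnumbered higher ones, which was not tested against that background. The median log2 fold change was -0.02 against 0.00 for all genes. In the list of haem scavenging and breakdown, 3 of 10 were lower and 1 was higher (median -0.08). Haptoglobin (Hp), the plasma protein that hands haemoglobin to CD163, stood at 901 ± 22.4 CPM in loaded and 1200 ± 55.8 CPM in control knees (SD, n = 3 each; adjusted p = 7.71e-07, edgeR). Which cells made this Hp RNA was not tested. Neutrophil and marrow myeloid markers were lower in 8 and higher in 1 of 11 cases. Lrp1, the receptor for haemopexin-haem complexes, fell by 0.53, and the biliverdin reductase gene Blvra fell by 0.57. Hmox2, the constitutive haem oxygenase, rose by 0.30 ± 0.089 (log2, SE; adjusted p = 0.0163, edgeR) and lost this call without control 1, control 2, loaded 1 or loaded 2. The haem transporters Slc48a1 (-0.01) and Flvcr1 (-0.87) and haemopexin (Hpx, 0.46) did not pass.

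**Figure D5:**
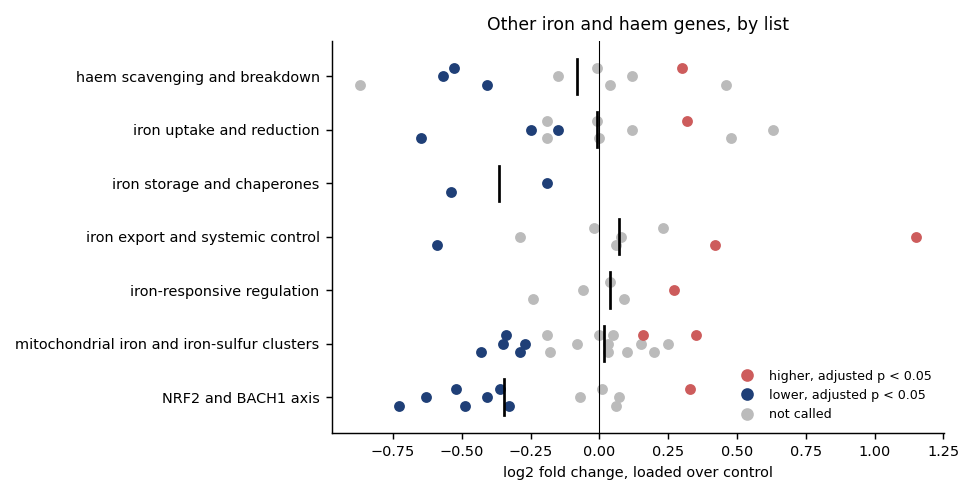
Log2 fold change of loaded over control knees for the tested genes of 7 lists of iron and haem handling, each point 1 row, with the list's median as a black bar. Red points were higher and dark blue points lower at an adjusted p under 0.05. The NRF2 and BACH1 list had the most lower calls, 7 of 12.

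Among genes of iron uptake and reduction 3 of 11 were lower and 1 higher (median -0.01). Transferrin (Tf), the iron carrier of plasma, stood at 4972 ± 76.5 CPM in loaded and 5521 ± 28.9 CPM in control knees. It fell by 0.15 (adjusted p = 0.000262, edgeR). This row is named Tf, but its deposited best-hit symbol is Srprb, a different gene. The ferritin receptor gene Scara5 fell by 0.65, and the metalloreductase gene Steap4 fell by 0.25, a call lost with library totals and without control 2. Lipocalin 2 (Lcn2), which binds iron-carrying siderophores and is stored in neutrophil granules, had 1171, 1175 and 1137 CPM in loaded libraries, against 942, 935 and 922 CPM in control libraries. Lcn2 thus rose while the neutrophil markers as a sum were lower. Of the 11 tested markers in that sum 8 were lower, and Mmp8, the 1 called higher, rose by 0.28 (log2, adjusted p = 1.19e-05, edgeR). Steap3, the endosomal ferrireductase that works beside Tfrc, stood at -0.19 ± 0.08 (log2, SE) and did not pass (adjusted p = 0.0751), except without control 2 (adjusted p = 0.0223, edgeR for both).

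The list of iron storage and chaperone genes beside the ferritins had 2 tested rows, Ncoa4 and Pcbp2, and both were lower (median -0.37). Ncoa4, the receptor that delivers ferritin to lysosomes for iron release, had 140, 147 and 162 CPM in loaded libraries, against 210, 221 and 222 CPM in control libraries (log2 fold change -0.54 ± 0.053 SE, adjusted p = 1.6e-06, edgeR). Pcbp2, an iron chaperone, fell by 0.19, a call lost with library totals. Mitochondrial ferritin (Ftmt) was at 0 in every library.

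Export and systemic control held 2 higher and 1 lower calls of 8 (median 0.07). Hjv, haemojuvelin, the BMP co-receptor known from liver and skeletal muscle, had 103, 103 and 106 CPM in loaded libraries, against 47.5, 46.8 and 46.3 CPM in control libraries. It rose by 1.15 ± 0.049 (log2, SE; adjusted p = 1.56e-10, edgeR). Skeletal muscle markers were higher in 10 of 11 cases with a median of 1.22, and took 1.76% to 1.77% of counts in loaded and 0.706% to 0.73% in control libraries. The row that was not called, Dbi (-0.43), is a different gene that stood in for Ttn through an older symbol. Dbi is included in that median and share. The part of muscle in the Hjv change was not tested. Hfe rose by 0.42 and Gdf15 fell by 0.59. The Hfe call was lost without control 1, control 2, control 3, loaded 1 or loaded 3, and the Gdf15 call without control 1, control 3 or loaded 2. Ceruloplasmin (Cp), the plasma ferroxidase, stood at -0.02 ± 0.081 (log2, SE). Hepcidin (Hamp), the hormone that removes ferroportin from the membrane, had 0, 0 and 3 counts in loaded libraries and 0 in every control library.

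Genes of iron-responsive regulation were mostly uncalled, with 1 of 5 higher and 0 lower (median 0.04). Ireb2 and Aco1, whose proteins bind the hairpins of ferritin, ferroportin and transferrin receptor messages, stood at 0.04 ± 0.094 and -0.24 ± 0.1 (log2, SE). The ubiquitin ligase subunit gene Cul1 rose by 0.27. Of 18 rows of mitochondrial iron and iron-sulfur cluster genes 2 were higher and 5 lower (median 0.02). The cluster scaffold Iscu rose by 0.35, while the glutaredoxin Glrx5 fell by 0.35, the haem pathway transporter Abcb10 fell by 0.34 and Sfxn1, a mitochondrial serine transporter, fell by 0.27. The iron importer Slc25a37 stood at 0.03 ± 0.053 (log2, SE).

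In the NRF2 and BACH1 list 7 of 12 were lower and 1 higher (median -0.34), where 18.0% of all genes were lower and 17.9% higher. The higher one was Me1 (0.33, adjusted p = 0.000333, edgeR). Hmox1, the ferritins, Slc40a1 and Blvrb are known to belong to the targets of this axis. Of these, Hmox1 and Blvrb were called lower and Fth1 higher, and the Slc40a1 rows and the row named Ftl1 were not called. LOC100360087, which held most light chain reads, was called higher (0.09, adjusted p = 0.0358, edgeR), a call lost in 6 of 15 alternatives. The summed light chain rows did not pass (0.08, adjusted p = 0.0653, edgeR). Nfe2l2, which encodes NRF2, had 52.7, 52.4 and 49.0 CPM in loaded libraries, against 72.3, 75.4 and 72.8 CPM in control libraries (log2 fold change -0.52 ± 0.053 SE, adjusted p = 2.19e-06, edgeR). Txnrd1, thioredoxin reductase, fell by 0.49, and Gclc, the first step of glutathione synthesis, fell by 0.41. Bach1 fell by 0.33 (adjusted p = 0.0403, edgeR), with overlapping groups, and lost the call with library totals and without control 2, control 3, loaded 1 or loaded 2. These genes serve many cell types.

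Genes whose log2 CPM followed that of a member most closely over the 6 libraries, among 9387 genes with a symbol and at least 5 CPM on average, are given as a description. For Hmox1 they were Pdcd2l, Rragc and the asparagine synthetase gene Asns (r = 0.999, 0.998 and 0.998). For Cd163 they included Rab8a and Myl9 (0.999 and 0.997), for Tfrc Ogn, Plod2 and Kctd10 (0.999, 0.997 and 0.997), and for Slc11a2 Abcf3, Alg2 and Nacc1 (0.998 each). For Blvrb they were Matn2, Tm9sf4 and Mettl26 (0.990, 0.989 and 0.989) and for Fth1 Plcg1, Spns2 and Rbm26 (0.992, 0.991 and 0.990). The larger Slc40a1 row had Akr7a2, Itgax and Fam69a (0.960, 0.958 and 0.950) and the smaller one Tmtc3, Kif21b and Spice1 (0.978, 0.977 and 0.956). For Ftl1 they were Rit1, Tiprl and Pard6b (0.980, 0.980 and 0.974), for Slc11a1 Hmgb3, Prmt5 and Carm1 (0.997, 0.983 and 0.982), and for Spic they included Dph7 and Grb10 (0.987 and 0.980). The 6 libraries also share their group.

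In the authors' deposited table, Hmox1 had a log2 fold change of -0.59 (false discovery rate 3.91e-22), Cd163 -0.41 (4e-05), Slc11a2 -0.27 (0.000852), Blvrb -0.20 (0.00992) and Fth1 0.14 (0.011). None of the 10 genes reached the 2-fold change that the header of the authors' deposited table names for a regulated gene.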

How the data were processed

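Total RNA was extracted with TRIzol and made into mRNA libraries, per the labels' protocols. The deposited table gave unnormalised counts for each gene in each library and FPKM values, which the authors scaled per gene length and library, per the file headers. It also held the authors' DESeq2 comparison. The submitters' processing notes name HISAT2, DESeq2 and the build mm10, although the identifiers are rat Ensembl ones, so the files' build is uncertain and coordinates here are RefSeq's on GRCr8. For the counting tool, annotation and strand setting the sources used here give nothing, so overlapping antisense genes and near-identical copies cannot be separated. Of 26991 lines, 10 were spilled text and were dropped.

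Tests on the counts used edgeR 4.0.16 under R 4.3.3 (filterByExpr, TMM, robust quasi-likelihood test, adjusted p under 0.05, Benjamini-Hochberg over 16447 genes). CPM values are scaled by TMM. The SE of a fold change was derived from the F statistic. Ratios add 0.5 to each count. Alternatives were DESeq2 1.42.0, limma-voom 3.58.1, other scalings, filters, thresholds, each library left out and a replicate block. The pipeline was tested on simulated data. Of 184 list symbols 178 were found, 1 of them (Ttn) only through an older symbol, which led to the row of a different gene, Dbi.

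All 10 genes are reported, with up to 4 called genes of each iron list and 17 others whatever their result. A few genes that this rule names are not reported here. LOC100360087, the markers singled out and the ratios without Lyz2 were picked once their values had been seen. The genes and lists were chosen with earlier results of these data known.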

Additional observations from a re-analysis of the deposited data

How the results depend on the processing

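The falls of Hmox1 (-0.63 to -0.52), Cd163 (-0.47 to -0.34) and Slc11a2 (-0.31 to -0.20, all log2) passed under all 16 alternatives, and the count of members lower in loaded knees, 4, stayed within 1.5 times of that. The count of members higher, 1 (Fth1), was 2 with library totals (Tfrc joined, 0.15, adjusted p = 0.00505) and at a threshold of 0.1, and 0 at a threshold of 0.01 and with the replicate block. With 1 library left out it was 0 to 1. The numbers 1 to 3 of the libraries did not pair them (same-number correlations of deviations -0.0139, 0.0462 and 0.0207), and with the block 2655 genes were higher and 2694 lower, against 2941 and 2954. With the block Fth1 stood at 0.14 (adjusted p = 0.0652), LOC100360087 at 0.09 (0.109), Hfe at 0.42 (0.0589) and Bach1 at -0.33 (0.0527, edgeR for all), none of them called. LOC100360087 lost its call in 6 of 15 alternatives (adjusted p up to 0.204). The causes of these losses were not tested. Leaving out 45 abundant features changed no member's call. With deposited FPKM in place of counts, the ratios to macrophage markers without Lyz2 differed by -0.76 for Cd163 and -0.93 for Hmox1, against -0.62 and -0.80. At this depth Hpx (2 to 21 counts in loaded and 8 to 12 in control libraries) and Hamp could not be resolved.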
